A study of Homo sapiens with 12 samples.

Results

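The genes described here are 10 Eph receptors and ephrins in OE33 cells, an established human line of esophageal adenocarcinoma: the receptors EPHA1, EPHA2, EPHA4, EPHB2, EPHB3, EPHB4 and EPHB6 and the ligands EFNA1, EFNB1 and EFNB2. They were found in the count table by Ensembl identifier and make up 10 of its 57500 genes and 10 of the 22 human Eph and ephrin genes, which comprise 14 receptors and 8 ligands. The genes were chosen by their levels and changes across the 4 groups in these same data. Their values and calls below are therefore a description of these 12 libraries and are not independent evidence of any change.

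Eph receptors are the largest family of receptor tyrosine kinases. Their ligands, the ephrins, are held on the surface of neighbouring cells, so the pair signals mainly at cell contacts. The A-type ephrins hang on a lipid anchor and bind mainly A-type receptors, whereas the B-type ephrins span the membrane and bind mainly B-type receptors; both the receptor-bearing and the ephrin-bearing cell receive a signal, and the usual outcome is repulsion, sorting or a change in adhesion. In the lining of the gut, B-type receptors and ephrins keep proliferating and differentiated cells in separate zones, and EPHA2 is often abundant in carcinomas.

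The study used polyadenylated RNA from 4 groups of OE33 cells with 3 libraries each. Parental cells were untreated. The group called rABS consisted of cells that survived 15 days of a daily 20-minute exposure to a 200 µM bile salt cocktail at pH 5.5, a laboratory stand-in for acid and bile reflux. Survivors carrying a stable non-targeting hairpin (shCtrl) and survivors carrying a stable hairpin against APE1, a DNA repair endonuclease encoded by APEX1 (shAPE1), formed the other groups, so that every group but Parental had gone through the exposure. The labels name 1 hairpin against APE1 and give no untreated group with a vector. The design text describes the 3 libraries of a group as independent biological replicates.

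Library totals ran from 15736087 to 23010377 counts, and the lowest correlation of log2 values between replicates was 0.9876. APEX1 was at 52.9 to 56.8 CPM (counts scaled to a common library total) in the Parental libraries, 79.8 to 84.4 in those of rABS, 56.4 to 61.9 for shCtrl and 4.41 to 5.87 for shAPE1 cells. The 5 epithelial markers EPCAM, CDH1, KRT8, KRT18 and KRT19 summed to between 9017 and 15740 CPM in every library. Endothelial markers summed to at most 0.888 CPM. Of the fibroblast markers only COL1A1 exceeded a few counts, and the fibroblast sum was 22.5 to 29.4 CPM in the Parental libraries, 3.42 to 4.18 in those of rABS, 9.04 to 9.44 for shCtrl and 7.12 to 8.20 for shAPE1 cells. The leukocyte sum, carried by CD14 and CD79A with PTPRC and CD3E at or near 0, was 5.56 to 7.42 CPM in the Parental libraries, 20.0 to 24.2 in those of rABS, 8.86 to 10.3 for shCtrl and 10.6 to 12.3 for shAPE1 cells. The part of these genes in the differences described below was not tested. In bulk RNA, fewer cells expressing a gene and less RNA per cell cannot be told apart.

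All 10 genes, EPHA4 only through the exposed groups, passed the low-count filter that left 15805 genes for testing. A gene was called when the adjusted p of edgeR's quasi-likelihood test, fitted to all genes and all 12 libraries, was under 0.05. Between rABS and Parental cells, 4 of the 10 were called higher (EPHA4, EPHB2, EPHB3 and EPHB6) and 4 lower (EPHA2, EFNA1, EFNB1 and EFNB2), in a comparison where 59.8% of all tested genes were called, 29.9% in each direction. The 3 libraries of each group did not overlap for 8 of the 10, and for 63.1% of all tested genes. Their median log2 difference was 0.00 and that of all tested genes was -0.01. The median size of the difference, ignoring sign, was 0.43 for the 10 genes and 0.5 for all. Between shAPE1 and shCtrl cells, 3 were called higher (EPHA1, EPHB2 and EPHB4) and 3 lower (EPHB3, EPHB6 and EFNB2), against 36.6% of all tested genes, 17.8% higher and 18.8% lower. The libraries did not overlap for 6 of the 10 and for 46.8% of all. The median was 0.03 for the 10 genes and -0.02 for all, and ignoring sign it was 0.25 and 0.27. Between shCtrl and rABS cells, which differ by the vector and the handling that goes with it, EFNB1 was called higher and EPHA1, EPHB2, EPHB3 and EPHB6 lower, against 36.5% of all tested genes, 17.9% higher and 18.6% lower, and the libraries did not overlap for 6 of the 10 and 48.4% of all. Here the median was -0.16 for the 10 genes and 0.02 for all, and ignoring sign it was 0.24 and 0.28. The comparisons share groups, so their values are given side by side and not set against each other as separate evidence. The calls mark differences from the spread between these replicates.

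**Figure D1:**
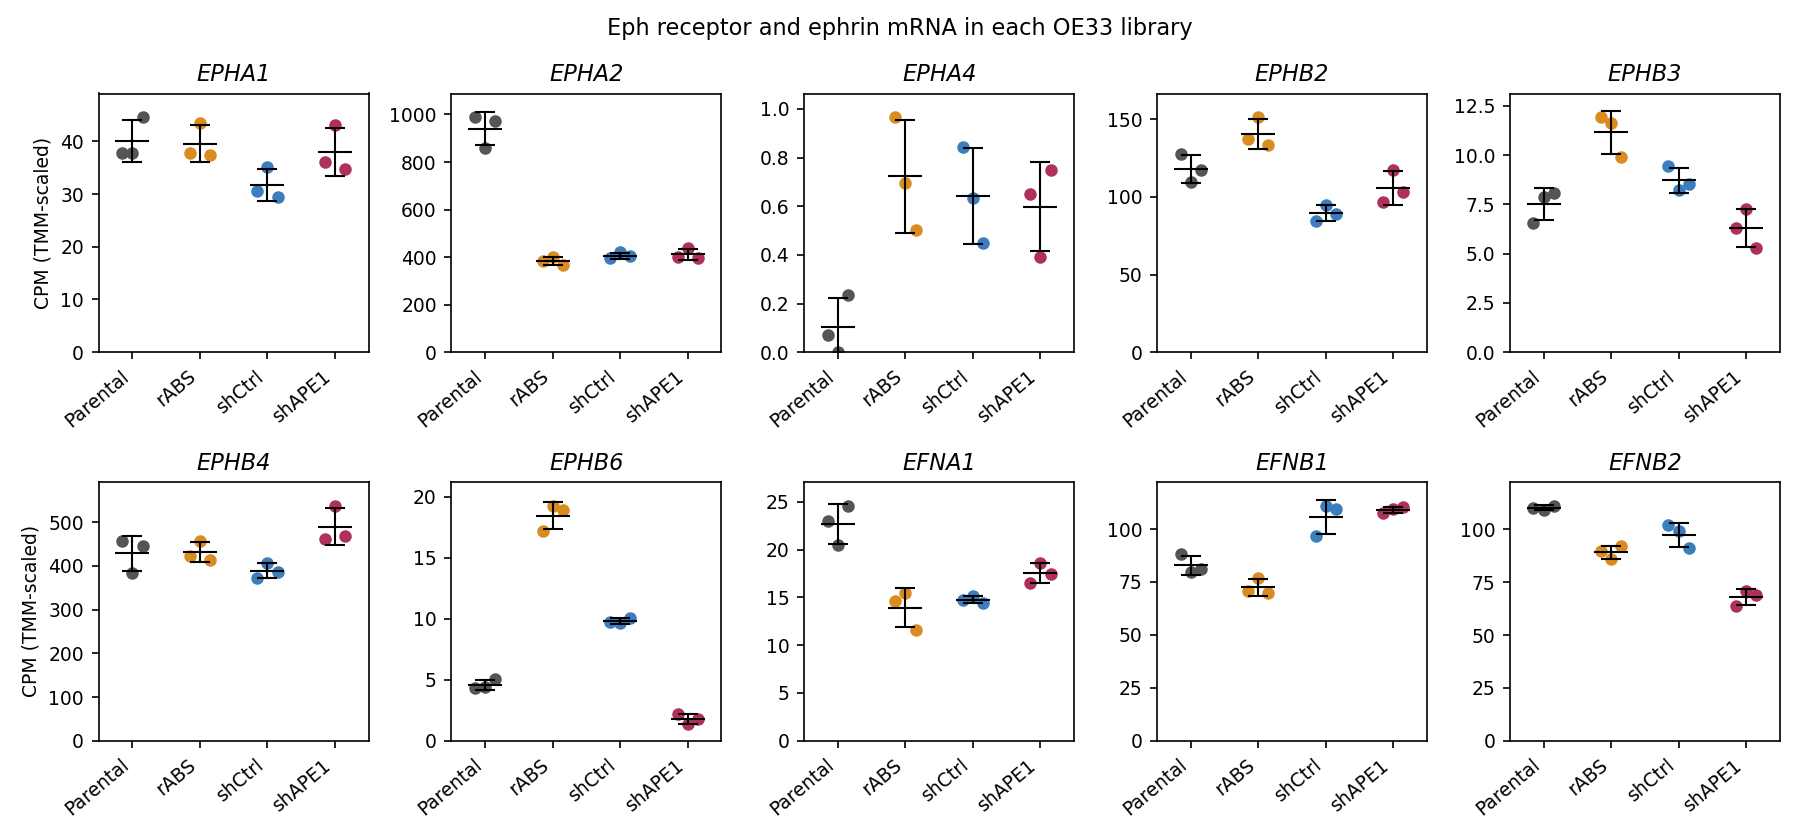
Level of each of the 10 genes in every library, in CPM on a linear axis from 0 that differs between panels, by group (Parental, rABS, shCtrl, shAPE1). Points are libraries, and the bar with whiskers is the mean ± SD of 3 libraries, with a whisker that would pass below 0 truncated at the axis. EPHA2 stood highest in Parental cells and lay between 366.7 and 438.7 CPM in all 9 exposed libraries, while EPHB6 took a separate level in each group.

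EPHA2, a receptor of epithelial cells whose main partner is ephrin-A1, was the most abundant Eph receptor RNA of Parental cells. Its levels were 989, 859.7 and 972 CPM in the 3 Parental libraries, 385, 401 and 367 in those of rABS, 394, 419.8 and 404 for shCtrl and 401, 439 and 395 for shAPE1 cells. Every exposed library lay below every Parental library, and the 3 exposed groups overlapped one another. The rABS cells were 2.45-fold lower than Parental cells, with a log2 difference of -1.29 ± 0.07 (SE). Between shAPE1 and shCtrl cells EPHA2 was not called, and its log2 difference of 0.02 had a 95% confidence interval of -0.12 to 0.16. The gene lies on chromosome 1 from 16124337 to 16156087 on the minus strand (GRCh38).

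EPHA1, the founding member of the family, moved little. It was at 37.7, 37.85 and 44.6 CPM in the Parental libraries, 37.7, 43.5 and 37.5 in those of rABS, 30.5, 35.1 and 29.5 for shCtrl and 36.0, 43.15 and 34.7 for shAPE1 cells. The shCtrl libraries were the low ones, and every pair of neighbouring groups overlapped. Relative to rABS cells, shCtrl cells were called 1.25-fold lower, with a log2 difference of -0.32 ± 0.10. Relative to shCtrl cells, shAPE1 cells were called 1.196-fold higher, at 0.26 ± 0.10, although the ranges overlapped. Set against rABS cells instead, shAPE1 cells had a log2 difference of -0.06 for EPHA1, which was not called. The rise in shAPE1 cells was not called when replicate 2 of shAPE1, or replicate 1 or 3 of shCtrl, was left out, and the fall in shCtrl cells was not called without replicate 2 of rABS or replicate 3 of shCtrl. ZYX, on the other strand, shares 82 bases (1.7%) of the EPHA1 exons. It held 49000 counts over all 12 libraries, beside 8311 for EPHA1. Whether counting used strand is not given, and the part of this overlap was not tested.

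EPHA4, unusual in binding ephrins of both types, was near the limit of detection. Its counts were 1, 0 and 4 in the Parental libraries, 17, 12 and 10 in those of rABS, 16, 15 and 9 for shCtrl and 13, 7 and 12 for shAPE1 cells. All 9 exposed libraries held more counts than any Parental library and overlapped one another. The fitted log2 difference between rABS and Parental cells, 2.82 ± 0.72, was the largest of the 10 genes, and it ranged from 2.14 to 4.38 when single Parental libraries were left out, so its size rests on a handful of reads. EPHA4 passed the filter only through the exposed groups, so a difference from Parental cells was a condition of its being tested.

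EPHB6, a receptor whose kinase domain lacks activity and which signals through its partners, had a separate level in each group. It was at 4.29, 4.44 and 5.07 CPM in the Parental libraries, 17.2, 19.3 and 18.9 in those of rABS, 9.70, 9.66 and 10.1 for shCtrl and 2.21, 1.35 and 1.81 for shAPE1 cells. No library of any group reached into the range of another, with rABS highest, then shCtrl, then Parental, then shAPE1. How many of all tested genes had a separate level in each group was not counted. The rABS cells were 4.01-fold higher than Parental cells, at a log2 difference of 2.00 ± 0.14. The shCtrl cells were 1.88-fold lower than rABS cells, at -0.91 ± 0.13. The shAPE1 cells were a further 5.44-fold lower than shCtrl cells, at -2.44 ± 0.17, which placed EPHB6 20th from the lowest of the 15805 tested genes in that comparison. The shAPE1 libraries held 44, 24 and 29 counts of the gene, and the log2 difference stayed between -2.64 and -2.27 when any 1 library of shAPE1 or shCtrl was left out. Against rABS cells the difference was -3.35. EPHB6 lies on chromosome 7 from 142855061 to 142871094 on the plus strand.

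EPHB2, the B-type receptor best known from crypt base cells of the intestine, was highest in rABS cells. It was at 128, 109.6 and 117 CPM in the Parental libraries, 137, 151 and 133 in those of rABS, 84.3, 94.95 and 89.1 for shCtrl and 96.6, 117.5 and 103 for shAPE1 cells. The rABS libraries lay above all others and the shCtrl libraries below all others, while Parental and shAPE1 libraries overlapped. The gene was called 1.19-fold higher in rABS than in Parental cells (0.25 ± 0.08), 1.57-fold lower in shCtrl than in rABS cells (-0.65 ± 0.08) and 1.18-fold higher in shAPE1 than in shCtrl cells (0.24 ± 0.08). The direction of the last difference depended on the control: against rABS cells, shAPE1 cells were lower, with a log2 difference of -0.41 that was also called. The rise over shCtrl cells was not called without replicate 2 of shAPE1, replicate 1 of shCtrl or replicate 3 of shCtrl.

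EPHB3, which shares crypt functions with EPHB2, was a low-abundance receptor. It was at 6.57, 7.90 and 8.07 CPM in the Parental libraries, 11.9, 11.6 and 9.92 in those of rABS, 9.44, 8.22 and 8.55 for shCtrl and 6.32, 7.25 and 5.31 for shAPE1 cells. The rABS libraries were the high ones, the shCtrl libraries lay just below them, and Parental and shAPE1 libraries overlapped. It was called 1.48-fold higher in rABS than in Parental cells (0.56 ± 0.14), 1.28-fold lower in shCtrl than in rABS cells (-0.35 ± 0.14) and 1.38-fold lower in shAPE1 than in shCtrl cells (-0.47 ± 0.15). The second of these calls was lost without replicate 1 or 2 of rABS and without replicate 2 or 3 of shCtrl, and the third without replicate 3 of shAPE1 or replicate 1 of shCtrl.

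EPHB4, the receptor that pairs with ephrin-B2 at the boundary between arteries and veins, was the most abundant B-type receptor RNA. Its levels were 456, 384 and 446 CPM in the Parental libraries, 422, 457 and 415 in those of rABS, 373, 407 and 386 for shCtrl and 462, 538 and 469 for shAPE1 cells. The shAPE1 libraries lay above all others, the Parental libraries overlapped both rABS and shCtrl, and those of rABS lay just above those of shCtrl, a difference that was not called. The shAPE1 cells were called 1.26-fold higher than shCtrl cells, at 0.33 ± 0.07. Between rABS and Parental cells the log2 difference was 0.01, with a 95% confidence interval of -0.14 to 0.16, and it was not called. SLC12A9, on the other strand, shares 69 bases (1.1%) of the EPHB4 exons. It held 22033 counts over all 12 libraries, beside 96704 for EPHB4, and the part of this overlap was not tested.

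Among the ligands, EFNA1 encodes ephrin-A1, an inducible ligand of EPHA2. It was at 23.0, 20.5 and 24.6 CPM in the Parental libraries, 14.7, 15.5 and 11.6 in those of rABS, 14.8, 15.2 and 14.4 for shCtrl and 16.55, 18.65 and 17.5 for shAPE1 cells. The Parental libraries lay above all exposed libraries, and the shAPE1 libraries lay above those of rABS and shCtrl. EFNA1 was 1.63-fold lower in rABS than in Parental cells, at -0.70 ± 0.12. Its difference of 0.25 ± 0.11 between shAPE1 and shCtrl cells was not called, whereas that of 0.34 between shAPE1 and rABS cells was. Receptor and ligand of the EPHA2 and ephrin-A1 pair were thus both called lower in the exposed cells without a vector.

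EFNB1 and EFNB2 encode the transmembrane ligands ephrin-B1 and ephrin-B2, the main partners of EPHB2 and EPHB3 and of EPHB4. EFNB1 was at 88.1, 79.5 and 81.0 CPM in the Parental libraries, 70.9, 76.8 and 69.55 in those of rABS, 96.7, 111 and 109.5 for shCtrl and 107.5, 109.5 and 110.2 for shAPE1 cells. Its libraries split into a high pair of groups with a vector and a lower pair without. The gene was called 1.46-fold higher in shCtrl than in rABS cells (0.55 ± 0.07), and 1.14-fold lower in rABS than in Parental cells (-0.19 ± 0.07), a call that was lost without replicate 1 of Parental and without replicate 1 or 3 of rABS. Between shAPE1 and shCtrl cells it was not called, at 0.04 ± 0.07, and against rABS cells shAPE1 cells were called higher, at 0.59. EFNB2 was at 110.3, 109.0 and 111 CPM in the Parental libraries, 89.7, 85.8 and 92.0 in those of rABS, 102, 99.1 and 91.1 for shCtrl and 63.7, 70.9 and 69.2 for shAPE1 cells. The shAPE1 libraries were the low ones and the Parental libraries the high ones, with rABS and shCtrl overlapping between them. EFNB2 was called 1.24-fold lower in rABS than in Parental cells (-0.31 ± 0.07) and 1.43-fold lower in shAPE1 than in shCtrl cells (-0.52 ± 0.07). An antisense gene annotated over 26.2% of the EFNB2 exons was not analysed here, and whether counting used strand is not given in the sources used here.

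**Figure D2:**
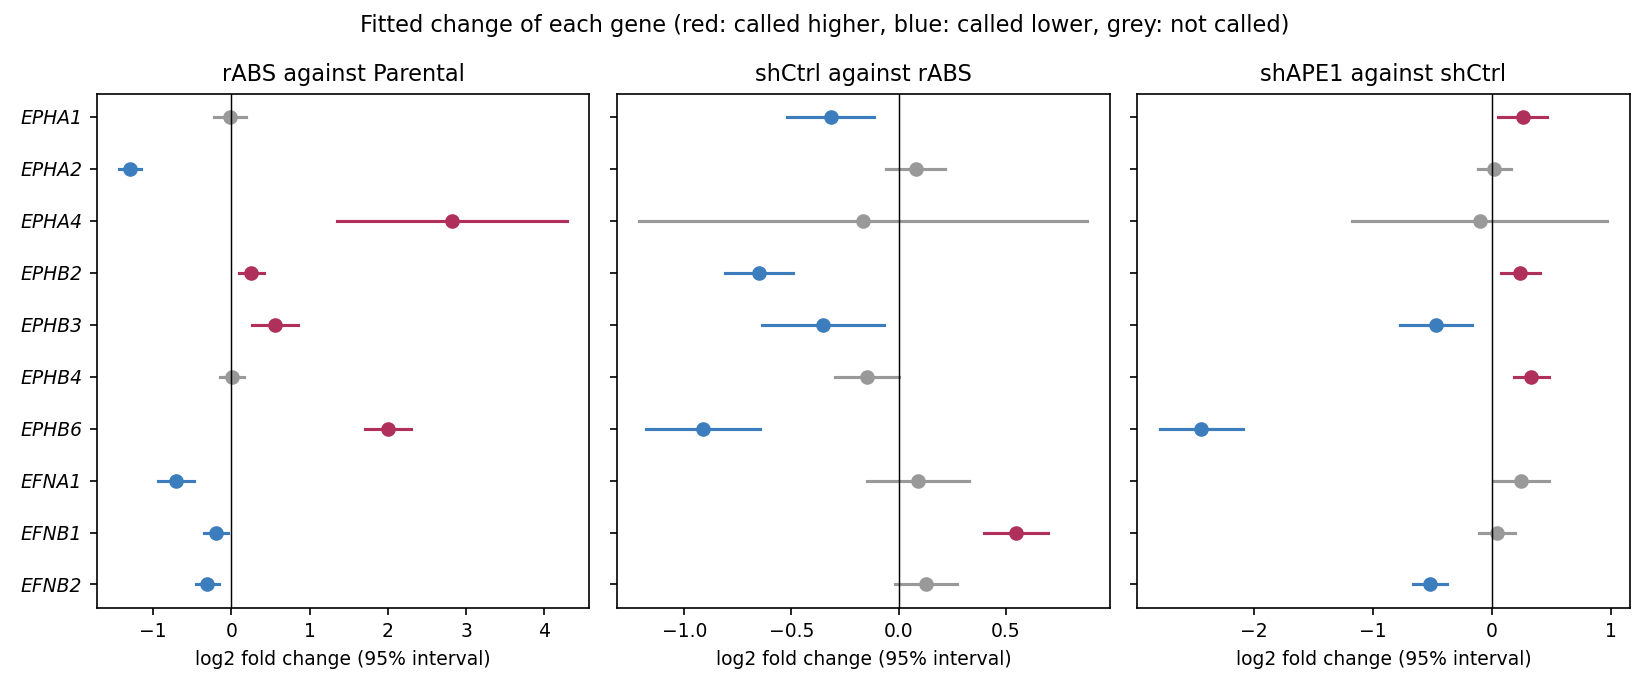
Fitted log2 difference of each of the 15 tested Eph and ephrin genes in each comparison, with horizontal bars for the 95% confidence interval; the x axes differ between panels. Red points were called higher, blue lower and grey not called. EPHA4 and EFNA2 passed the filter only through exposed groups, so a difference from Parental cells was a condition of their being tested. EPHA4 has the widest interval in rABS against Parental cells, and EPHB6 and EFNA5 lie farthest to the left in shAPE1 against shCtrl cells.

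Dividing by exon length allowed genes to be compared with one another. On this scale EPHA2 made up 72.2% ± 0.2 (SD, n = 3) of the summed Eph receptor RNA in Parental cells and 49.8% ± 0.6 in rABS cells, 55.4% ± 0.3 with the control hairpin and 51.1% ± 0.8 in shAPE1 cells. EPHB4 made up 21.2%, 36.1%, 34.3% and 39.3% in the same order, so these genes together held most of the receptor RNA in every group. EPHB2 held 3.01% of the sum in Parental and 6.05% in rABS cells, and EPHB6 held 0.276%, 1.87%, 1.05% and 0.176%. These shares are not separate changes, since each moves with the sum. Between Parental and rABS cells EPHA2 went from 226.1 to 92.4 CPM per kilobase, while EPHB4 was at 66.61 and 67.05. The A-type receptors together were at 235 CPM per kilobase in Parental and 101 in rABS cells, whereas the B-type receptors were at 78.6 and 84.2. The ratio of summed receptors to summed ligands was 4.01 ± 0.19 in the Parental libraries, 2.47 ± 0.03 in those of rABS, 2.01 ± 0.04 for shCtrl and 2.25 ± 0.09 for shAPE1 cells. Which receptor led depended on the gene length used: with the longest coding transcript in place of all exons, EPHA2 was at 42.2% and EPHB4 at 43.4% in rABS cells, and at 43.2% and 47.0% in shAPE1 cells.

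**Figure D3:**
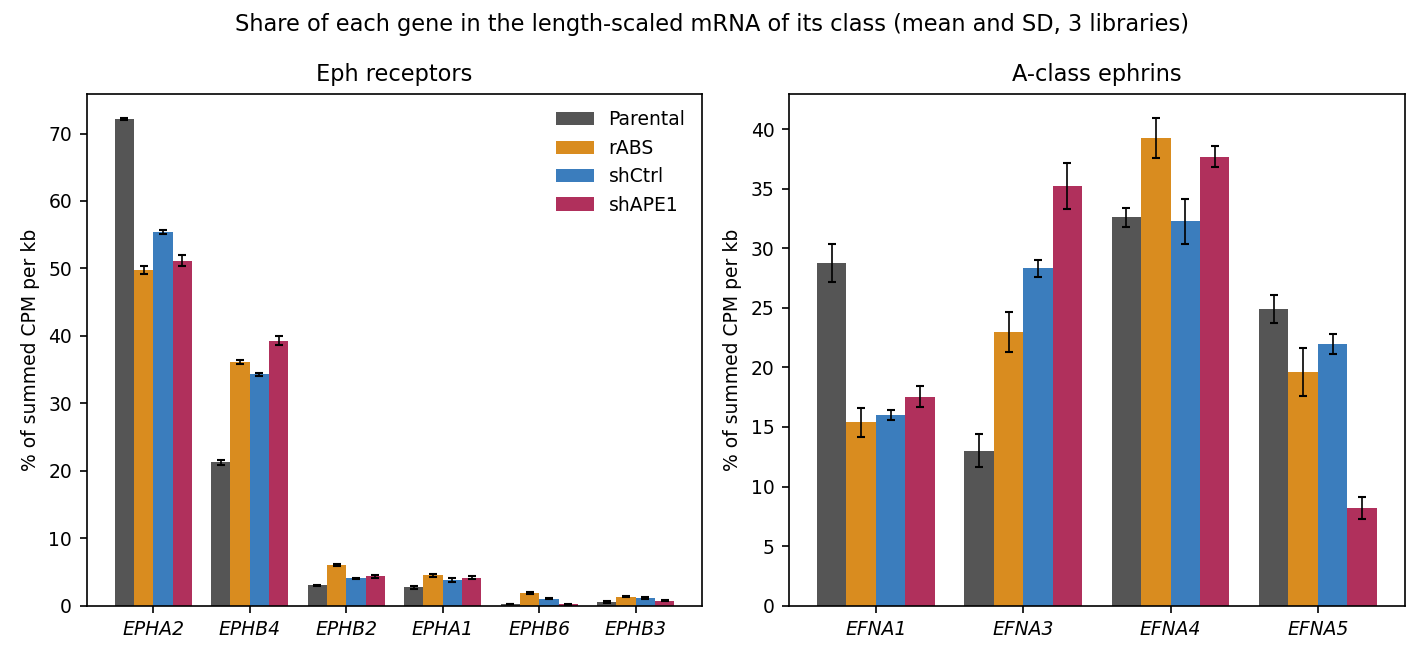
Make-up of the summed Eph receptor RNA and of the summed ephrin RNA in each group, in percent of CPM per kilobase of exon, as stacked bars of group means over 3 libraries. EPHA2 takes 72.2% of the receptor bar in Parental cells and 49.8% in rABS cells, and the EFNA5 segment is narrowest in shAPE1 cells.

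The B-type ligands shifted toward ephrin-B1. Per length, the ratio of EFNB1 to EFNB2 was 1.14 ± 0.06 in the Parental libraries, 1.23 ± 0.11 in those of rABS, 1.65 ± 0.20 for shCtrl and 2.44 ± 0.11 for shAPE1 cells (SD, n = 3). The step from rABS to shCtrl cells came with a higher EFNB1 and the step from shCtrl to shAPE1 cells with a lower EFNB2. The summed B-type ligands were at 47.0, 39.6, 51.3 and 46.4 CPM per kilobase in the same order of groups.

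Of the 12 Eph and ephrin genes outside the list, 5 passed the filter. EFNA3, which encodes ephrin-A3, differed between all 4 groups with no overlap, at 7.26 to 8.27 CPM in the Parental libraries, 15.2 to 15.75 in those of rABS, 19.3 to 20.2 for shCtrl and 23.5 to 29.3 for shAPE1 cells. It was 2.01-fold higher in rABS than in Parental cells (edgeR adjusted p = 6.93e-09) and 1.35-fold higher in shAPE1 than in shCtrl cells (edgeR adjusted p = 0.000948). EFNA5, which encodes ephrin-A5, was at 37.9 to 47.3 CPM in the 9 libraries outside shAPE1 and at 16.3, 19.4 and 19.4 in shAPE1 cells, 2.49-fold lower than in shCtrl cells (edgeR adjusted p = 3.76e-13). EFNA4 was 1.38-fold higher in rABS than in Parental cells (edgeR adjusted p = 0.000777) and 1.26-fold higher in shAPE1 than in shCtrl cells (edgeR adjusted p = 0.0168), the latter lost without replicate 1 or 2 of shAPE1 or replicate 3 of shCtrl. Against rABS cells, EFNA4 in shAPE1 cells had a log2 difference of 0.09, which was not called. EPHA10, another receptor without kinase activity, was 2.13-fold higher in rABS than in Parental cells (edgeR adjusted p = 0.000108). It was 1.55-fold lower in shCtrl than in rABS cells (edgeR adjusted p = 0.0207), a call lost in 3 of 6 fits with single libraries left out. The EPHA10 ranges of shAPE1 and Parental cells overlapped. EFNA2 held 2 to 7 counts in the Parental libraries and 12 to 25 in those of rABS. It passed the filter only through the groups where it was high, so no test is given. Its fitted log2 difference, 2.11, ranged from 1.67 to 3.11 when single libraries were left out, the highest value being without replicate 1 of Parental.

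Through these changes the A-type ligands differed in make-up between groups. EFNA1 made up 28.7% ± 1.6 (SD, n = 3) of their sum per length in Parental and 15.4% ± 1.2 in rABS cells, and EFNA3 made up 13.0% ± 1.4 and 23.0% ± 1.7. In shAPE1 cells EFNA3 was at 35.2% ± 1.9 and EFNA5 at 8.18% ± 0.90, beside 28.3% ± 0.7 and 22.0% ± 0.9 in shCtrl cells. A read-through gene that joins EFNA4 to EFNA3 shares 44.7% of the EFNA3 exons and 15.0% of those of EFNA4, and it held 2 counts over all 12 libraries, beside 3926 for EFNA3 and 3574 for EFNA4. The remaining 7 family genes were not tested: EPHA3 and EPHA5 had no count, EPHB1 had 19 counts over all 12 libraries, and EPHA6, EPHA7, EPHA8 and EFNB3 had 2, 2, 3 and 5.

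The 3′ untranslated regions of the family were searched for TGCATTC, for the word shifted by 1 base downstream (GCATTCT) and for the word shifted by 1 base upstream (CTGCATT). These overlapping words of 7 bases are ones that an earlier search over these same fold changes had singled out. Matches are therefore a description only. EPHB6, EFNA5 and EFNB2, all called lower in shAPE1 than in shCtrl cells, each carried a match, and so did EPHB2, which was called higher, and EFNA1, which was not called. Their sites, 30 bases of the GENCODE 29 transcript each, are shown because they let the lower and the other genes be set side by side, with the matching bases in capitals:
EPHB6, chr7:142871015-142871044, plus strand: cctcccgatggCTGCATTCcctggtcctcc
EFNA5, chr5:107380923-107380952, minus strand: gtcagctcctgTGCATTCTcctctaagaac
EFNA5, chr5:107380615-107380644, minus strand: gactgtcttaaaGCATTCTtgacagcaaaa
EFNB2, chr13:106490640-106490669, minus strand: ctctcctttctgTGCATTCatgcaagagtt
EPHB2, chr1:22917430-22917459, plus strand: agataacgtaaaTGCATTCaaaagacaggg
EFNA1, chr1:155134594-155134623, plus strand: gtagccaggtaCTGCATTCTctcccatcct
All positions are on GRCh38. The longest match, spanning all 3 words, was in EFNA1, whose RNA was not called between shAPE1 and shCtrl cells.

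A match was held by 3627 of 12467 genes searched (29.1%), of which 1330 were called lower and 529 higher in shAPE1 than in shCtrl cells. Among the 8840 genes without one, 1402 were called lower and 2138 higher. The words were singled out by a search over these same fold changes, so these counts follow from that choice and are no independent support. Genes with a match had longer untranslated regions, with a median of 2883 bases against 962, and this was not adjusted for. EPHB6 carried its match in a region of only 190 bases, whereas those of EFNA5, EFNB2 and EPHB2 measured 4366, 3309 and 7630 bases. EPHB3 was called lower with no match in its 787 bases, and EPHB4, EPHA1, EFNA3 and EFNA4 were called higher with none. EPHA4, with 2 sites, and EPHA10, with 1, were not called.

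**Figure D4:**
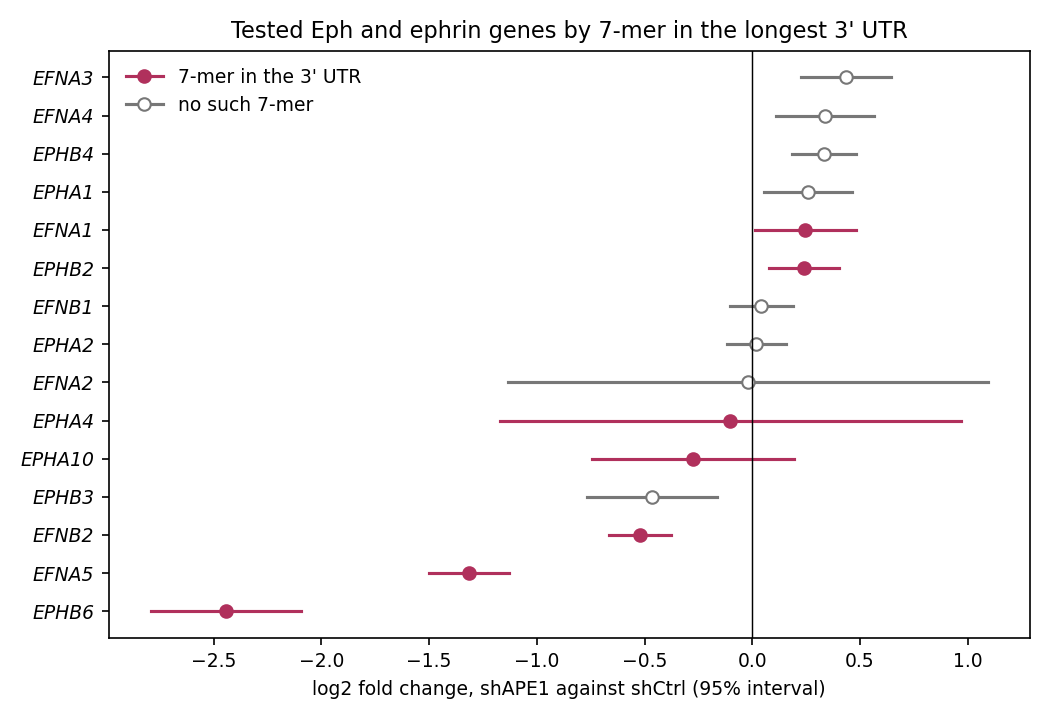
Length of the 3′ untranslated region in bases (log axis) against the log2 difference between shAPE1 and shCtrl cells for the 15 tested Eph and ephrin genes, marked by whether the region holds any of the 3 words. EPHB6 combines the lowest value, -2.44, with a region of 190 bases, and EPHB2 lies above 0 with a match in the longest region.

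The downstream and partner genes of Eph signalling were counted in a list of 62 genes of kinases, adaptors, proteases, scaffold proteins and cytoskeletal regulators. Of these, 56 were tested. This list too was chosen with earlier results of these data known, so its counts and p-values are a description. Between rABS and Parental cells 35 were called lower and 9 higher (78.6%, beside 59.8% of all tested genes), with a median log2 difference of -0.30 beside -0.01 for all tested genes. The size of the difference, ignoring sign, was no larger than usual, with a median of 0.42 for the list and 0.5 for all tested genes. RASA1, a Ras GTPase-activating protein that binds activated EPHB receptors, was at 268 CPM in Parental and 58.6 in rABS cells, a log2 difference of -2.19 (edgeR adjusted p = 2.39e-22). GRB7, an adaptor of receptor kinases, was at 1516 and 440.3 CPM, a log2 difference of -1.78 (edgeR adjusted p = 1.34e-18). MYL9, a myosin light chain, was 12.1-fold higher (edgeR adjusted p = 1.81e-16), and LIMK2, a kinase that acts on cofilin, was 1.73-fold higher. Their relatives in the list went the other way. The more abundant light chain genes MYL12A and MYL12B were called lower, with log2 differences of -1.11 and -1.07. LIMK1 was called lower as well, at -0.22.

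Between shAPE1 and shCtrl cells the list split evenly, with 16 of 56 called higher and 15 lower (55.4% called, beside 36.6% of all tested genes) and a median log2 difference of -0.02, the value for all tested genes. Ignoring sign, the median was 0.26 for the list and 0.27 for all. NGEF, the gene of ephexin, an exchange factor that acts downstream of EPHA receptors, went from 16.5 to 6.92 CPM (log2 difference -1.26, edgeR adjusted p = 6.01e-10), and the adaptor GRB2 had a log2 difference of -0.69 (edgeR adjusted p = 1.06e-09). LIMK1 was 1.53-fold higher (edgeR adjusted p = 7.9e-09) and the ubiquitin ligase CBLB 1.77-fold higher (edgeR adjusted p = 1.49e-08). Between shCtrl and rABS cells 24 were called higher and 10 lower (60.7%, beside 36.5% of all tested genes), with a median of 0.12 beside 0.02 for all, and ignoring sign of 0.23 beside 0.28. RASA1 was 1.89-fold higher there (edgeR adjusted p = 6.81e-12) and MYL9 had a log2 difference of -2.22 (edgeR adjusted p = 4.61e-12). MYL12A and MYL12B were called higher in that comparison, at 0.445 and 0.307.

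EPHB2 and EPHB3 are known targets of β-catenin and TCF factors in the intestine, so a list of 15 WNT target genes was set beside them. Of these, 13 were tested. The list was chosen with earlier results of these data known, so its counts and p-values are a description and no independent support. Between rABS and Parental cells 12 of the 13 were called higher, beside 29.9% of all tested genes. The last, NOTUM, was not called (log2 difference 0.31). The 12 include SP5, with no count in Parental cells, LEF1, with 4 over the 3 libraries, and ASCL2, with 11, which passed the filter only through exposed groups and so had to differ. TNFRSF19, a receptor of the TNF family, was 10.0-fold higher (edgeR adjusted p = 2.71e-20) and NKD1, a feedback inhibitor of the pathway, 5.95-fold higher (edgeR adjusted p = 5.23e-19). SOX9 was 1.22-fold higher. EPHB2 and EPHB3 were 1.19-fold and 1.48-fold higher. Between shAPE1 and shCtrl cells 7 were called lower and 1 higher (61.5%, beside 36.6% of all tested genes), with a median of -0.38. The 7 include ASCL2, which passed the filter only through groups where it was higher and held 8 counts over the 3 shAPE1 libraries. Its shAPE1 and shCtrl ranges overlapped. TCF7 had a log2 difference of -1.23 (edgeR adjusted p = 1.16e-12) and SOX9 of -0.76 (edgeR adjusted p = 2.43e-10). In that comparison EPHB3 was lower and EPHB2 higher, and each call was lost in some fits with single libraries left out. With rABS cells as the control, EPHB2 was called lower in shAPE1 cells instead. Between shCtrl and rABS cells, where both receptors were called lower, 2 of the list were called lower and 2 higher (30.8%, beside 36.5% of all tested genes), with a median of -0.17.

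The word CTTTGAA, a core form of the TCF site, and its variant ending in T (CTTTGAT) were searched on both strands in RefSeq promoter windows of 300 bases on GRCh38. A match was in 6.86% of 35116 windows and in none of the windows of the 20 family genes that had one. This says only that these letters are not in those windows.

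The genes whose pattern over the 12 libraries was most like that of the genes with the largest differences were found by the root mean square difference of log2 values centred on each gene's mean. For EPHB6 these were PIGM at 0.47, CDC45 at 0.50 and MORF4L2 at 0.51, of 11015 genes compared. PIGM, an enzyme of lipid-anchor synthesis, was at 9.61 CPM in the Parental libraries, 26.8 in those of rABS, 14.7 for shCtrl and 5.70 for shAPE1 cells, the same order of groups as EPHB6. CDC45, a factor of DNA replication, was at 15.8, 45.1, 22.5 and 9.81 CPM. For EPHA4 they were LINC00235, MAP6D1 and ATP6V0E2, at 0.41, 0.41 and 0.42 of 11016 genes, a ranking that rests on the few counts of EPHA4.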

How the data were processed

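Polyadenylated RNA of 12 OE33 libraries was measured. The deposited table holds unnormalised counts for each Ensembl gene. Per the submitters' processing notes, the tools included Trimmomatic 0.36, STAR 2.5.2b and featureCounts of Subread 1.5.2, with the build GRCh38. The annotation release, strand setting and treatment of multi-mapped reads are not stated by the sources used here. Symbols were matched for 56898 of 57500 identifiers.

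Genes were filtered with filterByExpr (minimum count 10, minimum total 15), and 15805 of 35464 genes with any count were tested with edgeR 4.0.16 (TMM scaling, robust quasi-likelihood fit of all 12 libraries with 1 term per group, Benjamini-Hochberg adjustment over all tested genes, threshold 0.05) in R 4.3.3. Standard errors are the absolute log2 difference over the square root of F. CPM uses TMM-scaled totals, and values per kilobase use GENCODE 29 exon lengths. The 10 genes, the pathway lists and the searched words were chosen with earlier results of these data known. Partner and WNT target genes were named by adjusted p, up to 4 in each direction; 1 gene of the WNT list is not reported here by name. Correlations between same-numbered libraries' deviations from their group means ran from -0.157 to 0.108, with 1 of 18 above 0.1, so replicate numbers were not treated as pairs. Alternatives were RLE and upper-quartile scaling, DESeq2 1.42.0, limma-voom (limma 3.58.1), other filters, 6-library fits, a fold threshold, a replicate block, rABS as the control of shAPE1 and leaving out each library; another gene length was added after seeing the data.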

Additional observations from a re-analysis of the deposited data

How the results depend on the processing

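Over the 3 comparisons, the 10 genes gave 456 values under alternatives, of which 405 kept their direction and call, 32 kept the direction and lost the call, 4 gained a call and 15 changed sign. Against a fold threshold of 1.2, the number called lower went from 4 to 2 in rABS against Parental and in shCtrl against rABS cells, and the number called higher in shAPE1 against shCtrl cells from 3 to 0. Over all tested genes the same numbers went from 4725 to 3598, from 2935 to 1234 and from 2808 to 1142. EPHB2, called 1.19-fold higher in rABS than in Parental cells, had a difference smaller than that threshold. Leaving out single libraries gave 4 higher and 3 to 4 lower for rABS against Parental, 1 to 3 higher and 2 to 3 lower for shAPE1 against shCtrl, and 1 higher and 2 to 4 lower for shCtrl against rABS. The low values came without replicate 2 of shAPE1 or replicate 1 or 3 of shCtrl (1 higher), and without replicate 2 of rABS or replicate 3 of shCtrl (2 lower).

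With rABS as the control of shAPE1 cells, EPHB2 (-0.41) and EPHA1 (-0.058) changed sign. The remaining sign changes of the 10 genes were in differences that were not called. In rABS against Parental, leaving out single libraries gave ranges of -0.089 to 0.071 for EPHA1 and -0.065 to 0.077 for EPHB4. In shAPE1 against shCtrl they were -0.027 to 0.047 for EPHA2, -0.30 to 0.13 for EPHA4 and -0.018 to 0.078 for EFNB1. In shCtrl against rABS they were -0.397 to 0.095 for EPHA4 and -0.032 to 0.171 for EFNA1. EFNA2, which is not among the 10 genes and was not called, changed sign in shAPE1 against shCtrl cells with single libraries left out (-0.25 to 0.26) and with DESeq2 (0.003), limma-voom (0.051), RLE factors (0.001) and upper-quartile factors (0.022).

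With the replicate block, 4 were higher and 4 lower, 3 and 3, and 1 and 3 in the same order of comparisons. The call lost under the block was that of EPHB3 in shCtrl against rABS cells (-0.35, edgeR adjusted p = 0.0608), and 3 of 12 libraries correlated best with their own number. EPHA4 had too few counts to be tested at a minimum count of 50 or with only the 6 libraries of rABS and Parental. Depth limits EPHA4, and to a lesser degree EPHB6 in shAPE1 cells.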
